A study of Dunaliella salina with 6 samples.

Results

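This account describes 38 predicted genes of the green alga Dunaliella salina that carry no functional annotation and whose transcript levels were higher in every culture without added iron than in every culture with it. Members were chosen from the expression values themselves. A gene was taken when its model had no name, no product and no Pfam domain reference, its mean over 6 libraries was at least 1 FPKM, and its lowest value without added iron was at least 2 times its highest value with added iron. FPKM is fragments per kb of transcript, scaled to the mapped reads of the library, so it is a level per transcript length. The annotation held 25074 gene models, of which 16681 had none of these annotations, and 6338 of those reached the mean of 1 FPKM. The rule was passed by 40 of these 6338 genes (0.631%), and 2 of the 40 start in a stretch of chromosome 2 that the rule sets aside. The same rule was passed by 50 of 7568 annotated genes (0.661%) and by 90 of all 13906 modelled genes at that level (0.647%). The mirrored rule, with added iron at least 2 times higher, was passed by 29 unannotated genes (0.458%) and 48 annotated genes (0.634%). The direction of all 38 genes is fixed by the rule, so their differences between the groups are given as a description, with no test.

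Iron is a cofactor of the photosynthetic and respiratory electron transport chains, and green algae that run short of it raise iron uptake proteins and replace some iron proteins by iron-free substitutes. Dunaliella salina is a unicellular alga without a rigid cell wall that lives in brines, and it is known for transferrin-like proteins at its plasma membrane and for a chlorophyll-binding protein induced by iron deficiency. A gene model without annotation is a predicted transcript whose protein matched no named gene and no domain family in the annotation, so its function is not known from these files.

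The cells were wild-type vegetative cells of the variety Bardawil, strain UTEX LB 2538, in liquid culture with 1 M NaCl. Cultures in 3 flasks received 0 µM and cultures in another 3 flasks received 1.5 µM added iron, and RNA was taken after 3 days. Both groups were shaken at 140 rpm and 24 °C under constant light of 50 µE per square metre and second, and how much iron the medium and the precultures already held is not stated. All 6 libraries were poly(A)-selected and read as single 50-nt reads. Whether the flasks of a group came from separate precultures is not stated, so the spread between libraries may be technical. The values are relative to all poly(A) RNA of a culture, so fewer cells expressing a gene and less of its RNA per cell cannot be told apart. Deposited FPKM summed to between 472982 and 610113 per library. The lowest values implied depths of about 18500000, 19400000 and 21100000 reads in the 3 cultures without added iron and 21300000, 19100000 and 25000000 in the other 3, in replicate order. As a check of the cultures, 9 named iron genes were all found, and without added iron 6 were higher and 3 lower, with log2 fold changes between -3.51 and 9.74 (limma on log2(FPKM + 1), adjusted p under the 0.05 threshold for each).

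The libraries were of 2 kinds, and this touches the short members. In all 6 libraries many low values were whole multiples of a step, the value of 1 read, that depended on the transcript's length after a correction for fragment length. In replicates 1 and 2 of both groups, but not in replicate 3 of either, another set of low values followed a step that used the full transcript length. A value was read in this unit only where it lay under about 1 read by the corrected step. Between 31.9% and 44.8% of the values under 10 reads were whole by the corrected step, with a tolerance of 0.05 read. Between 48.7% and 50.6% were whole in either unit when the full-length unit was allowed at any size and in all 6 libraries. Some values fall within the tolerance by chance, and that share was not measured, so the number of reads is an estimate. For a model of 156 nt in replicate 1 without added iron, 1 read was worth 4.40 FPKM by the corrected step and 0.347 FPKM by the full-length step, 12.7 times less. For a model of 222 nt the ratio was 5.36. The same number of reads could therefore stand for very different FPKM values in a short transcript.

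By this count the members split evenly. Of the 38, 19 had at least 20 implied reads in some library and are called well read below, and 19 had fewer than 20 in all 6 by the corrected step. The limit of 20 was chosen after the values were seen. Among the 6338 unannotated genes 849 (13.4%) fell under it, among the 29 that moved the opposite way 11 (37.9%), and among the 50 annotated genes passing the same rule 0. The share of all 7568 annotated genes under the limit was not counted. Models of at most 435 nt of exon, the length of the longest little-read member, were 3.88% of those 7568 and 22.2% of the 6338. The 19 little-read members were all short, between 156 and 435 nt. This follows largely from the split, since at a mean of at least 1 FPKM only a short model can have so few reads.

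**Figure D1:**
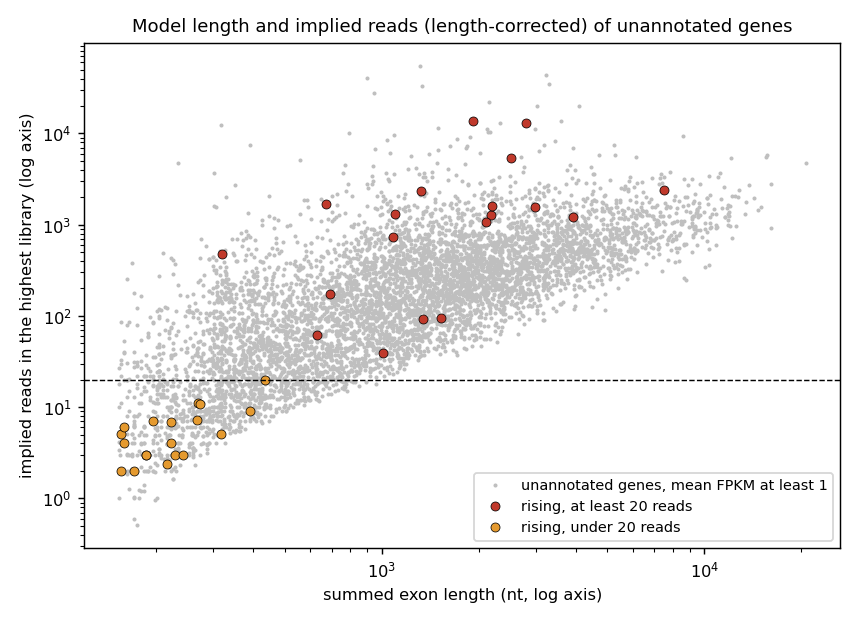
Summed exon length (nt, log axis) against the implied reads of the highest library (length-corrected, log axis) for the 6338 unannotated genes with a mean of at least 1 FPKM, with the 38 members coloured. The 19 orange points below the dashed line at 20 reads lie between 156 and 435 nt, and the 19 red points above it lie between 321 and 7526 nt.

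The well-read members ranged in mean level from 2.12 to 376 FPKM without added iron, with a median of 25.7, and from 0.0373 to 84.5 FPKM with it, with a median of 5.42. The ratio of the group means was at least 10 in 7 of them, between 4 and 10 in 4, and under 4 in 8. The 7 include DsB_g12594 and DsB_g02640, whose levels with added iron rest on at most 3 implied reads per library. None has a known role in the annotation, so they are described by their values and structure. The log2 differences below are between group means of log2(FPKM + 1), which understates the change of low values.

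DsB_g04129 had the largest log2 difference of the 38, with a pseudocount of 1 or of 0.1. It is a model of 14 exons (chromosome 2, 23441193 to 23449753, minus strand), with 1925 nt of exon, of which 1128 nt are coding, and untranslated regions of 360 nt and 437 nt at its 5′ and 3′ ends. Its level was 430, 411 and 286 FPKM in cultures 1, 2 and 3 without added iron and 0.272, 0.456 and 0.512 FPKM with it. All 3 libraries without added iron were high and all 3 with it were low, at 13683, 13730 and 10386 implied reads against 10, 15 and 22. The means were 376 ± 78.4 and 0.413 ± 0.125 FPKM (SD, n = 3 each), a ratio of 909 and a log2 difference of 8.04. Among 13906 genes it ranked 197 by mean level without added iron and 13875 with it.

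DsB_g22826 and DsB_g15084 were low but clearly read with added iron. DsB_g22826, with 3 exons (chromosome 14, 10016163 to 10019024, minus strand), had 102, 107 and 58.9 FPKM without added iron and 1.63, 0.978 and 1.11 FPKM with it, a log2 difference of 5.30. The groups were far apart, with replicate 3 the lowest of the cultures without added iron. DsB_g15084, with 4 exons (chromosome 8, 14320416 to 14324645, plus strand), had 119, 120 and 67.2 FPKM against 3.19, 2.58 and 2.88 FPKM, a log2 difference of 4.68. Its values with added iron lay within a narrow range, and replicate 3 without added iron was again the lowest of its group.

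DsB_g12662 was the shortest of the well-read members, with 4 exons summing to 321 nt, all coding (chromosome 7, 1928001 to 1929105, plus strand). Its level was 207, 201 and 186 FPKM without added iron and 6.22, 9.98 and 11.0 FPKM with it, a log2 difference of 4.34. The 3 libraries without added iron differed little from each other. At this length FPKM rests on few fragment positions, but the implied reads were 461, 470 and 474 against 16, 23 and 33, so the separation did not rest on the step.

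DsB_g12594 was the member with the widest spread among the well-read ones. It has 5 exons (chromosome 7, 862769 to 866602, minus strand), and its level was 27.1, 33.1 and 2.48 FPKM without added iron. With added iron it was 0.0713, 0 and 0.0406 FPKM, which is 3, 0 and 2 implied reads. Replicate 3 without added iron stood far below the other replicates, at 0.0822 of their mean, and above all 3 libraries with added iron, as the rule requires. The log2 difference of the means was 3.85, and it was 6.63 with a pseudocount of 0.1. Because its level with added iron rests on at most 3 reads per library, no ratio is given.

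DsB_g16842 has 2 exons (chromosome 9, 15784184 to 15785748, minus strand), and most of its 1101 nt lie in a 3′ untranslated region of 770 nt, against 291 nt of coding sequence. Its level was 73.1, 74.8 and 63.4 FPKM without added iron and 4.70, 5.14 and 6.42 FPKM with it, a log2 difference of 3.48. Both groups were tight and far apart. DsB_g15118, with 6 exons and 672 nt, all coding (chromosome 8, 14940975 to 14954551, plus strand), had 188, 186 and 137 FPKM against 28.1, 30.5 and 29.8 FPKM, a log2 difference of 2.48. It differed from the members above in that it was well expressed in both groups, ranking 394 of 13906 without added iron and 2576 with it.

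DsB_g14477, DsB_g12595 and DsB_g17101 had intermediate levels in both groups. DsB_g14477, with 5 exons (chromosome 8, 5470994 to 5473189, minus strand), had 40.8, 42.9 and 28.7 FPKM without added iron and 9.37, 7.98 and 6.51 FPKM with it, a log2 difference of 2.09. DsB_g12595, with 4 exons (chromosome 7, 880356 to 883918, minus strand), had 39.6, 41.9 and 22.6 FPKM against 8.69, 8.21 and 7.59 FPKM, a log2 difference of 1.92. DsB_g17101, with 5 exons (chromosome 9, 20398963 to 20403645, plus strand), had 26.6, 29.1 and 21.5 FPKM against 6.53, 7.68 and 8.02 FPKM, a log2 difference of 1.66. In all 3 of these genes the groups were separate, as the rule requires, and replicate 3 was the lowest without added iron. DsB_g12594, DsB_g12595 and DsB_g14477 are also the 3 members whose models carry a note of a match in EggNog, a database of orthologous gene groups. The note in the annotation names no group by function. A note of any kind was carried by 3 of the 38 members (7.89%), against 13.5% of the 6338 unannotated genes.

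DsB_g03042 was the member with the highest level with added iron and the only well-read one with a single exon. It occupies positions 11377453 to 11380258 of the plus strand of chromosome 2, and of its 2806 nt only 300 nt are coding, while 2506 nt are annotated as 5′ untranslated region. Its level was 191, 224 and 239 FPKM without added iron and 87.2, 83.9 and 82.4 FPKM with it, a log2 difference of 1.35. Here replicate 3 was the highest without added iron, and the group means, 218 ± 24.5 and 84.5 ± 2.49 FPKM (SD, n = 3 each), stood in a ratio of 2.58. It ranked 307 of 13906 without added iron and 846 with it.

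The members with the longest models had ratios of lowest to highest value between 2.10 and 2.75 and were well covered. DsB_g01461 (chromosome 1, 21234256 to 21327102, plus strand) has 49 exons and 7074 nt of coding sequence, the longest of the 38. Its level was 16.2, 16.7 and 15.5 FPKM without added iron and 7.39, 6.16 and 6.28 FPKM with it, a log2 difference of 1.17. DsB_g20116, with 12 exons and 2997 nt, all coding (chromosome 12, 3136347 to 3149922, minus strand), had 25.4, 29.0 and 17.4 FPKM against 7.77, 7.21 and 7.70 FPKM, a log2 difference of 1.51. DsB_g09020, also with 12 exons (chromosome 4, 27366837 to 27395133, plus strand), had 16.5, 16.7 and 12.5 FPKM against 3.91, 4.15 and 4.56 FPKM, a log2 difference of 1.63. The 3 long genes had 293 to 1155 implied reads per library with added iron. That their groups did not overlap follows from the rule.

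Described last are the remaining 5 well-read members. DsB_g23688, with 4 exons (chromosome 15, 8599993 to 8602305, plus strand), had 18.6, 18.2 and 15.2 FPKM without added iron and 6.91, 6.32 and 6.15 FPKM with it. DsB_g23809, with 4 exons (chromosome 15, 10904825 to 10906560, plus strand) and 54 to 62 reads without added iron, had 6.89, 6.83 and 6.91 FPKM against 2.18, 2.90 and 3.04 FPKM. DsB_g12619, with 10 exons (chromosome 7, 1247182 to 1252541, plus strand), had 4.36, 2.71 and 2.45 FPKM against 0.864, 1.06 and 0.597 FPKM. These 3 were separate between groups by a little more than the rule required, with ratios of lowest to highest between 2.21 and 2.32. DsB_g11828, with 5 exons (chromosome 6, 14445090 to 14451617, minus strand), had 3.03, 3.70 and 1.11 FPKM against 0.283, 0.356 and 0.212 FPKM. DsB_g02640, with 4 exons (chromosome 2, 5523564 to 5529504, plus strand), had 2.62, 2.44 and 1.30 FPKM against 0.0582, 0.130 and 0.0497 FPKM, the latter on 1, 2 and 1 implied reads. For both, replicate 3 was the lowest library without added iron.

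**Figure D2:**
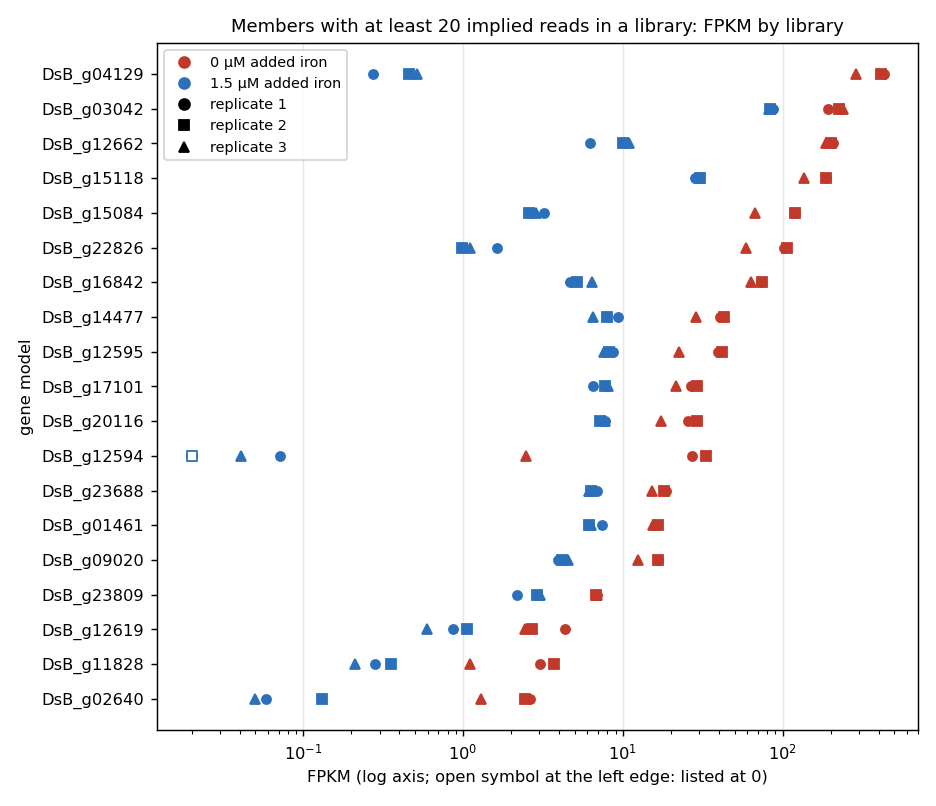
FPKM of the 19 well-read members (log axis) in each of the 6 libraries, red for 0 µM and blue for 1.5 µM added iron, with symbols for replicates 1, 2 and 3 and genes ordered by mean level without added iron. No red point falls below a blue point of the same gene, as the rule requires. The red triangle, replicate 3, is the lowest red point in 17 of the 19 genes.

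Replicate 3 without added iron stood below replicates 1 and 2 for most members. It was the lowest of the 3 in 26 of 38 members and in 17 of the 19 well-read ones, against 7094 of all 13906 genes. Its ratio to the mean of replicates 1 and 2 had a median of 0.733 over the members and 0.694 over the well-read ones, against 0.939 over all genes. Among the well-read members it ran from 0.0822 in DsB_g12594 to 1.15 in DsB_g03042, and without DsB_g12594 the lowest was 0.330. Replicates 1 and 2 agreed closely there, with a ratio of replicate 2 to replicate 1 between 0.621 and 1.22 and a median of 1.02. Within replicates 1 and 2 alone the median log2 difference of the 38 members between the groups was 1.89, and within replicate 3 alone it was 1.54. All 38 were higher without added iron in replicate 3 too, as the rule requires. Without replicate 3 of the cultures without added iron, 70 genes passed the rule in place of 38. The 38 are among them by construction, since leaving out a library can only loosen the rule while the mean is kept over 6 libraries. What set replicate 3 apart was not tested.

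All 38 members together made up 1647, 1686 and 1274 summed FPKM without added iron, 0.307%, 0.341% and 0.269% of each library's total. With added iron they summed to 195, 192 and 189 FPKM, 0.0348%, 0.0357% and 0.0310%. DsB_g04129 alone gave between 22.4% and 26.1% of the members' sum without added iron, and DsB_g03042 gave between 43.6% and 44.8% of it with added iron. The median log2 difference was 1.69 over the 38 members, 1.66 over the well-read and 1.71 over the little-read ones, against 0.00 over the 13909 genes tested. In the limma fit over those 13909 genes, 583 were called higher without added iron (4.19%) and 723 lower (5.20%), and 256 of the 6338 unannotated genes were called higher (4.04%). The same fit called 36 of the 38 members higher, a count that follows from how they were chosen. With columns rescaled to equal sums the split over all genes was 3185 higher and 551 lower, as the median of all genes then shifted by 0.17 on the log2 scale.

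The 19 little-read members had means between 1.76 and 15.7 FPKM without added iron. DsB_g24890, a single exon of 159 nt on the minus strand of scaffold_022 from 28111 to 28269, had 24.8, 7.88 and 14.5 FPKM without added iron and 0.885, 0.988 and 0 FPKM with it. The values without added iron were 6, 2 and 4 reads by the corrected step, and those with added iron were 3, 3 and 0 reads by the full-length step. The FPKM groups were far apart, while the read numbers overlapped.

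DsB_g23969, a single exon of 156 nt (chromosome 15, 13302403 to 13302558, plus strand), had the largest log2 difference of the little-read members at a pseudocount of 1, 3.36, while DsB_g16518 had it at 0.1, with 5.74. Its values were 4.42, 21.1 and 19.4 FPKM without added iron, or 1, 5 and 5 reads by the corrected step, and 0.685, 0.336 and 0 FPKM with it. Of the latter the first was not whole in either unit and the second was 1 read by the full-length step, so replicate 1 of one group and replicate 2 of the other both held 1 read at 4.42 and 0.336 FPKM. DsB_g09121, with 3 exons of 195 nt in all (chromosome 4, 28773640 to 28777447, plus strand), had 14.1, 5.77 and 8.84 FPKM, or 7, 3 and 5 reads. With added iron it had 0.481, 0.268 and 0 FPKM, or 2, 1 and 0 reads by the full-length step. Its read numbers stayed higher without added iron, by a smaller ratio than its FPKM.

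DsB_g06982 and DsB_g16518 are the other members with the shortest coding sequences, 159 and 156 nt. DsB_g06982, with 3 exons (chromosome 3, 29686563 to 29687349, plus strand), had 16.7, 15.1 and 1.80 FPKM without added iron and 0.630, 0.469 and 0 FPKM with it. By the limit above none of its values over 0 was whole, so its reads could not be counted. DsB_g16518, a single exon (chromosome 9, 11537963 to 11538118, plus strand), had 4.42, 4.22 and 7.75 FPKM without added iron, or 1, 1 and 2 reads, and was listed at 0 in all 3 libraries with it.

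Over the 19 little-read members the units of the 2 groups differed, but this is partly set in advance. The rule puts the lower FPKM values with added iron, and only values under about 1 corrected read were read in the full-length unit. The split below therefore describes the chosen members and is no result about the groups. Of their 57 values without added iron, 38 were whole reads by the corrected step, 0 by the full-length step and 19 were not whole in either. Of their 57 values with added iron, 3 were whole by the corrected step, 15 by the full-length step, 13 were not whole and 26 were listed at 0. With the full-length unit accepted at any size, 1 more value of each group was whole, 49 reads for DsB_g06982 in replicate 1 without added iron and 8 reads for DsB_g15838 in replicate 2 with it. Over all 6853 models of up to 435 nt, the share of low values whole by the full-length step was 8.92% and 10.3% in replicates 1 and 2 without added iron. It was 10.4% in each of replicates 1 and 2 with added iron, and 0.977% and 2.02% in replicate 3 without and with it. Among short models in general the full-length step was about as common without as with added iron.

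**Figure D3:**
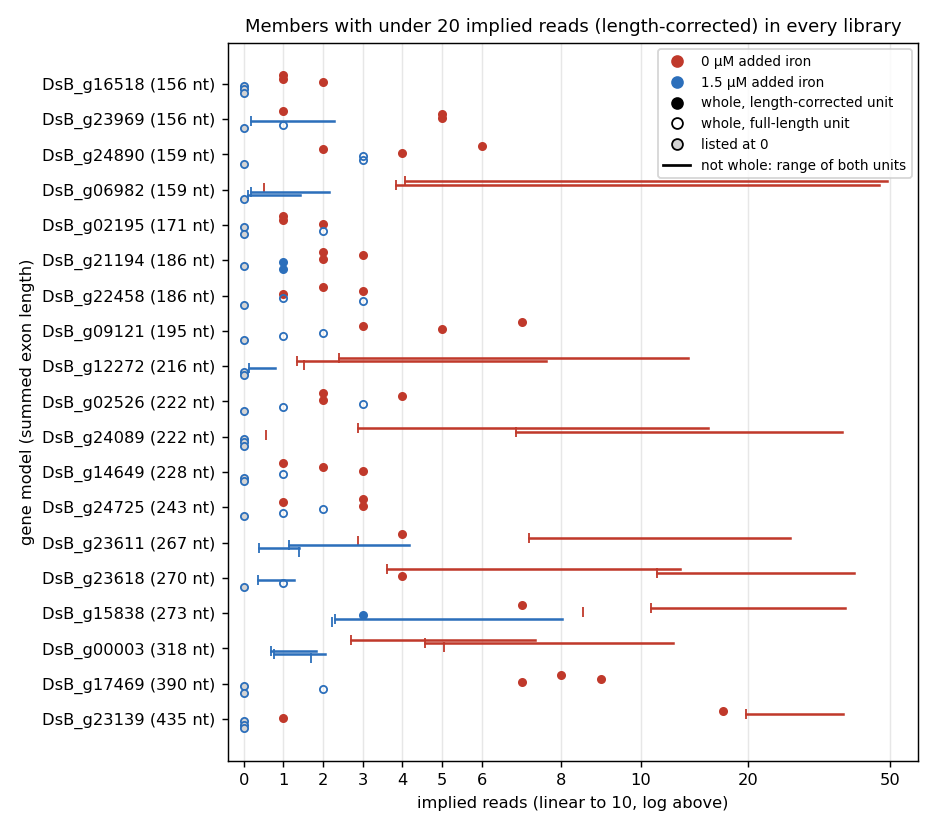
Implied reads (linear to 10, log above) of the 19 little-read members in each library, red for 0 µM and blue for 1.5 µM added iron, ordered by summed exon length. Filled points are whole reads by the corrected step, open points whole reads by the full-length step, and grey points are values listed at 0. Lines span both readings of values of replicates 1 and 2 that were not whole. Such values of replicate 3 are ticks at the corrected reading only. The 38 filled red points lie between 1 and 17 reads, and the 15 open blue points lie between 1 and 3.

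The rule was therefore applied again to implied reads divided by the depth of each library, a choice made after the values were seen. For well-read members this largely restates the rule on FPKM, so the outcome is informative for the 19 little-read members. Of these 6 held under every reading of their values, 5 held under some readings and 8 held under none. With the full-length unit accepted at any size the counts were 6, 4 and 9, since DsB_g15838 then did not hold. Of the 6, 3 were listed at 0 in all libraries with added iron, so any number of reads above 0 lets them pass. The 8 were DsB_g02195, DsB_g02526, DsB_g09121, DsB_g14649, DsB_g22458, DsB_g23969, DsB_g24725 and DsB_g24890. The 6 that held were DsB_g16518, DsB_g17469, DsB_g21194, DsB_g23139, DsB_g23618 and DsB_g24089. Of these DsB_g17469, a single exon of 390 nt on chromosome 10, had the most even reads, 8, 9 and 7 without added iron against 0, 2 and 0 with it. DsB_g23139, a single exon of 435 nt on chromosome 15, had 3.96, 4.38 and 0.204 FPKM without added iron, of which the first is 17 reads and the last 1 read, and was listed at 0 in all 3 libraries with added iron. The other 4 rested on at most 11.1 reads in any library by the corrected step.

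Several of the 8 genes that did not hold had read numbers that overlapped between the groups. DsB_g02195, a single exon of 171 nt (chromosome 1, 32169483 to 32169653, plus strand), had 3.19, 3.04 and 5.58 FPKM without added iron and 0, 0.612 and 0 FPKM with it, or 1, 1 and 2 reads against 0, 2 and 0. DsB_g22458, a single exon of 186 nt (chromosome 14, 3711750 to 3711935, minus strand), had 4.75, 6.79 and 2.08 FPKM against 0.252, 0.844 and 0 FPKM, or 2, 3 and 1 reads against 1, 3 and 0. The read numbers of both genes overlapped between the groups, while their FPKM did not. DsB_g02526, with 2 exons of 222 nt in all on chromosome 2, gave 2, 4 and 2 reads against 3, 1 and 0. DsB_g24725, a single exon of 243 nt on chromosome 16, gave 3, 1 and 3 reads against 2, 1 and 0. DsB_g14649, a single exon of 228 nt on chromosome 8, gave 1, 2 and 3 reads against 1, 0 and 0. In these 3 the read numbers also overlapped or touched.

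Among the members that held on reads, DsB_g23618, a single exon of 270 nt on chromosome 15, had 2.58, 7.57 and 2.51 FPKM without added iron and 0.221, 0.194 and 0 FPKM with it. DsB_g24089, with 2 exons of 222 nt in all on chromosome 16, had 3.75, 8.54 and 0.638 FPKM and was listed at 0 in all 3 libraries with added iron. Replicate 2 was the highest library of both. The 5 members that held under some readings were DsB_g00003, DsB_g06982, DsB_g12272, DsB_g15838 and DsB_g23611, most of whose values were whole in neither unit. DsB_g15838, with 2 exons of 273 nt in all on chromosome 9, had 4.87, 7.05 and 5.19 FPKM against 1.81, 1.53 and 1.14 FPKM. DsB_g23611, a single exon of 267 nt on chromosome 15, had 2.97, 5.06 and 1.86 FPKM against 0.729, 0.271 and 0.762 FPKM. DsB_g12272, a single exon of 216 nt on chromosome 6, had 3.41, 1.82 and 1.91 FPKM against 0.173, 0 and 0 FPKM. Their FPKM groups were separate, as the rule requires, on at most 10.7 reads by the corrected step.

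Near the threshold, the 5 members with the smallest ratio of lowest to highest value were DsB_g21194 at 2.02, DsB_g01461 at 2.10, DsB_g00003 at 2.17, DsB_g03042 at 2.19 and DsB_g23688 at 2.21. The 5 unannotated genes just outside were DsB_g05337 at 1.97, DsB_g20774 at 1.92, DsB_g21942 at 1.87, DsB_g01795 at 1.86 and DsB_g02716 at 1.85. DsB_g21942, a model of 17 exons on chromosome 13, had 219, 203 and 184 FPKM without added iron and 98.3, 85.6 and 89.3 FPKM with it, a level near that of DsB_g03042, which passed. DsB_g01795 had 15.7, 15.3 and 10.7 FPKM against 5.76, 4.20 and 4.73 FPKM. DsB_g21194 passed on 2, 3 and 2 reads against 1, 0 and 1, and DsB_g00003 on 1.25, 2.00 and 2.03 FPKM against 0.269, 0.339 and 0.575 FPKM. The border thus divided genes with similar values, some of them abundant and some resting on a few reads.

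In structure, the members as a whole had a median of 3 exons, 412.5 nt of exon and 312 nt of coding sequence, against 5 exons, 1086.5 nt and 780 nt over all 6338 unannotated genes. The difference lay between the well-read and little-read members, which the read limit itself separates largely by length. The 19 well-read ones had medians of 5 exons, 1527 nt of exon and 1008 nt of coding sequence, and spanned a median of 4230 nt of the chromosome. Of them 14 (73.7%) had an annotated untranslated region, against 59.1% of the 6338 unannotated genes. Those 6338 still held 849 genes under 20 implied reads, so the read limit was applied on 1 side only and the sets are not alike. The 19 little-read ones had a median of 1 exon and 222 nt, 12 were single exons and none had an untranslated region. Every member had a single transcript, as did 95.6% of the unannotated genes. The 29 unannotated genes that moved the opposite way were short too, with a median of 447 nt of exon, whereas the 50 annotated genes passing the rule had a median of 1928.5 nt and 11.5 exons. Because the filter on FPKM admits short models on a few reads, none of these medians describes unannotated genes in general.

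Within the well-read members the coding sequence was not the larger part of every model. In 4 of them the untranslated regions together were longer than the coding sequence, DsB_g03042, DsB_g14477, DsB_g16842 and DsB_g23688. In another 5 the whole model was coding with no untranslated region, DsB_g02640, DsB_g12662, DsB_g15118, DsB_g20116 and DsB_g23809. Coding lengths ran from 291 nt in DsB_g16842 to 7074 nt in DsB_g01461, and DsB_g16842 had 1202 to 1302 implied reads per library without added iron despite its short reading frame.

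In position, the members lay on 14 of the 16 chromosomes and on scaffold_022. On the plus strand were 25 (65.8%), 11 of the 19 well-read and 14 of the 19 little-read members, against 51.1% of the 6338 unannotated genes. Chromosome 15 held 6, which is 2.79% of its 215 unannotated genes at this level, but 4 of the 6 were little read. Chromosomes 2, 7, 8 and 9 held 4 each. All 4 on chromosome 7, DsB_g12594, DsB_g12595, DsB_g12619 and DsB_g12662, were well read, and they lay between positions 862769 and 1929105, with 0, 23 and 43 other models between successive members. DsB_g12594 and DsB_g12595 were the only members that adjoin each other, on the same strand with 13753 nt between them, and both carry the EggNog note. Their levels differed, with DsB_g12595 read 314 to 379 times with added iron and DsB_g12594 at most 3 times. No member lay within 10000 nt of another. DsB_g23611 and DsB_g23618 on chromosome 15 were the next nearest pair, 111020 nt apart with 6 models between them.

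The genes flanking the members were not used by the rule, and their changes can be tested. The nearest model on each side gave 74 neighbours that were not themselves members, of which 36 reached a mean of 1 FPKM. No neighbour overlapped a member, the median gap was 4297 nt, and 23 of the 76 gaps were under 1000 nt. Of the 36 tested neighbours 5 were called at an adjusted p under 0.05 (13.9%), against 9.39% of all genes tested, 3 higher and 2 lower without added iron. With columns rescaled to equal sums 11 of the 36 were called, 9 higher and 2 lower. Under that scaling 3736 of all 13909 genes tested were called, 3185 higher and 551 lower. The median log2 fold change of the 36 was 0.02, against 0.00 over all genes tested. Of the 22 tested neighbours of well-read members 4 were called, and of the 14 tested neighbours of little-read members 1 was.

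The nearest called neighbour was METE1 (DsB_g03041), a cobalamin-independent methionine synthase by its symbol and Pfam domains, which makes methionine without vitamin B12. It ends 418 nt upstream of DsB_g03042 on the same strand, from 11368948 to 11377034 on chromosome 2. METE1 was at 287, 302 and 316 FPKM without added iron and at 132, 132 and 169 FPKM with it, with no overlap between groups and log2 fold change 1.06 (SE 0.122, adjusted p = 0.00181 by limma). DsB_g03042 thus lay just beyond the 3′ end of a gene of similar level that was also higher without added iron, by 1.35 on the log2 scale for the member. Whether reads running past the annotated end of METE1 enter the count of DsB_g03042 was not tested.

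DsB_g20115, an unannotated single exon of chromosome 12 from 3134988 to 3135329, lay 1017 nt beyond the 3′ end of DsB_g20116 on the same strand. It had 50.1, 52.9 and 30.0 FPKM without added iron and 12.7, 20.1 and 14.5 FPKM with it, higher by 1.42 on the log2 scale (SE 0.235, adjusted p = 0.00942 by limma). Its groups did not overlap, but its ratio of lowest to highest was 1.49, so it was not itself a member. The call was lost with no filter on low values, and its adjusted p ran from 0.00166 to 0.106 over 14 alternatives. In both DsB_g20115 and DsB_g20116 replicate 3 was the lowest library without added iron.

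The other 3 called neighbours changed less or in the opposite direction. DsB_g12661, head to head with DsB_g12662 at 985 nt, had 7.07, 6.06 and 5.92 FPKM without added iron and 4.25, 3.89 and 3.98 FPKM with it, higher by 0.54 on the log2 scale (SE 0.0910, adjusted p = 0.00981 by limma) beside the member's 4.34, and its adjusted p ran from 0.00214 to 0.0531 over the 14 alternatives. NII1 (DsB_g23687), a nitrite reductase that reduces nitrite to ammonium in the plastid, lay 11952 nt from DsB_g23688 and was lower without added iron, at 41.8, 40.8 and 50.3 FPKM against 82.6, 81.5 and 89.0 FPKM, with log2 fold change -0.92 (SE 0.108, adjusted p = 0.00196 by limma). DsB_g17468, tail to tail with the little-read DsB_g17469 at 915 nt, fell by 0.60 on the log2 scale (SE 0.123, adjusted p = 0.0223 by limma), and that call was lost when replicate 1 or replicate 2 without added iron, or any replicate with it, was left out (adjusted p between 0.00772 and 0.101 over the 14 alternatives). DsB_g04129, the member with the largest difference, had 1 tested neighbour, DsB_g04128 at 2721 nt, whose log2 fold change was -0.17 (SE 0.0863, adjusted p = 0.265 by limma).

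**Figure D4:**
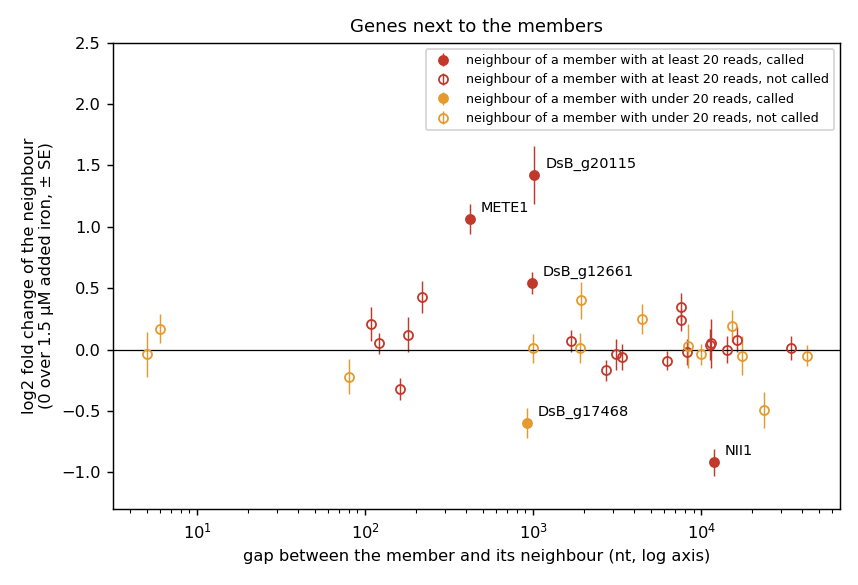
Log2 fold change (0 over 1.5 µM added iron, ± SE) of the 36 tested neighbours against their distance from the member (nt, log axis), filled where called at an adjusted p under 0.05, red beside well-read and orange beside little-read members. Most points lie near 0, and METE1 at 1.06 and DsB_g20115 at 1.42 are the highest.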

How the data were processed

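Per the series' design text, alignment used STAR and the assembly of the study, and quantification used cuffdiff. The submitters' processing notes give STAR 2.4.0j and Cuffdiff 2.0.2. The authors deposited FPKM per gene and library and an annotation, version 1.1, whose coordinates are used here and count from 1. Strandedness, the handling of multiply mapped reads and any scaling factor were not stated. All 6 columns of the deposited table were used (25081 genes, 7 of them without a model).

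Genes with a mean of at least 1 FPKM (13909) were fitted with limma 3.58.1 in R 4.3.3 on log2(FPKM + 1), with group as the only term, a mean-variance trend and two-sided Benjamini-Hochberg adjusted p-values. The call threshold was 0.05. On simulated data with 200 changed genes the fit recovered 84% of the 2-fold and 98% of the 4-fold changes, and 4.71% of its calls were false. The changes were placed only in genes of higher level, with normal noise drawn independently for each library. These rates were therefore not measured for changes in genes of low level or for libraries of different kinds. Tables and figures were made with Python 3.11.15, numpy 2.4.6, pandas 2.3.3, scipy 1.17.1 and matplotlib 3.10.9.

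Implied reads were read from the steps in low values of 24124 models, with fragment lengths taken as normal with mean 200 nt, SD 80 nt and a shortest length of 34 nt, chosen so that the most values were whole. Since many were not, no count test or counting interval was computed. Named in full were the members highest in level or difference, longest, shortest, nearest the threshold or beside a called neighbour with an absolute log2 fold change of at least 1. The other members named were chosen after their values were seen. The members and lists were chosen with earlier results of these data known. Alternatives covered the pseudocount, scaling, filter, libraries left out, a replicate block, the threshold and the annotation criterion. No sequence of these genes was used.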

Additional observations from a re-analysis of the deposited data

How the results depend on the processing

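The number of members, 38, depended on the rule and the filter. It was 178 with no filter, 18 at a mean of at least 5 FPKM, 73 at a ratio of at least 1.5, 22 at a ratio of at least 3, 62 with Pfam references allowed and 89 in replicates 1 and 2 only. It lay between 41 and 70 with 1 library left out, with 70 reached without replicate 3 without added iron. On implied reads, chosen after seeing the data, 25 members held under every reading, 19 of them well-read members for which reads largely restate FPKM. The median log2 difference was 3.64 with a pseudocount of 0.1, 2.31 with columns rescaled to equal sums, 2.64 for the 18 members of at least 5 FPKM, 1.89 in replicates 1 and 2 only, and between 1.61 and 1.89 with 1 library left out.

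The replicate number tracks the kind of library, since replicate 3 of both groups lacks the full-length step. The labels name no shared batch, and the deviations of same-numbered libraries correlated at 0.0246, 0.0776 and -0.135, so no pairing is assumed. When the rule was instead asked within each pair of same-numbered libraries, 61 genes passed. With a replicate block in the fit, 813 genes and 5 neighbours were called.

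Calls over all genes, 1306, became 3736 with columns rescaled (3185 higher and 551 lower against 583 and 723, with the median of all genes shifted by 0.17), 2143 with quantile normalization, 547 with no filter, and between 586 and 1784 with 1 library left out. It fell by over 1.5 times without any single library except replicate 3 without added iron. Neighbours called, 5, became 11 with columns rescaled, 3 with no filter and 3 within 1000 nt, and lay between 4 and 7 with 1 library left out. METE1 and NII1 were called under every alternative run, while with no filter the adjusted p was 0.106 for DsB_g20115, 0.0531 for DsB_g12661 and 0.101 for DsB_g17468. For DsB_g17468 it lay between 0.0528 and 0.0917 when a library other than replicate 3 without added iron was left out. Depth limits the 19 members with under 20 implied reads, for which a difference of a few reads decides membership.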
